A study of Arabidopsis thaliana with 15 samples.

Results

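Among the transcripts of Arabidopsis thaliana rosette leaves, 25 genes stood higher in plants lacking both endosomal antiporters, NHX5 and NHX6, while the mean in plants lacking only NHX5 or only NHX6 stayed less than 0.2 units above wild type. They were chosen on group means of the deposited values: at least 0.5 units above wild type in each of the 2 double knockout lines, and less than 0.2 units above it in each single knockout, with no limit on how far below. In nhx5-2, WSD1 (−0.33 units) and AT3G14067 (−0.21) lay furthest below, and without wild type replicate 2 only 10 of the 25 stayed under 0.2. The 25 came from 13367 probe sets that the annotation assigned to 1 nuclear gene. Of all 22746 probe sets that entered the tests, 69 met the limits on values. Of these, 35 had no listed gene, 3 had several and 31 had 1 nuclear gene. A further 6 of the 31 were left out by name, namely AT1G68600, HIS1-3, COR15A, COR15B, BETA-VPE and ATG8C. Each of the 25 genes had 1 probe set.

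The plants were 4 weeks old, of accession Columbia in every group, and grew on soil under 8 h of light and 16 h of dark. There were 5 genotypes with 3 biological replicates each, 1 array per replicate: wild type, nhx5-2 (a GABI T-DNA line), nhx6-2 (a SALK T-DNA line), nhx5-2/nhx6-2, which joins those alleles, and nhx5-1/nhx6-1, whose NHX5 allele comes from the WiscDsLox collection and whose NHX6 allele is a further SALK line. The labels name no further treatment in any group, and p-values measure the spread between these labelled biological replicates. No probe set in the annotation was assigned to either antiporter gene, so the loss of their transcripts was not checked here.

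NHX5 and NHX6 exchange sodium or potassium ions for protons across the membranes of the Golgi, the trans-Golgi network and the prevacuolar compartment. The exchange lets protons leak out of these compartments and so helps to set their pH, on which the sorting of proteins to the vacuole depends. The antiporters resemble each other closely, and plants lacking both are known for small rosettes and sensitivity to salt.

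Values are in deposited units, a log-like score per probe set with a mean near 0 on each array. For each doubling of spike-in RNA the control probe sets read 0.681 units higher (SD 0.0281, 15 arrays), which makes 1 unit about 2.77-fold for the spikes. Folds below rest on this yardstick, which comes from bright controls and need not hold for dim transcripts. A ± after a mean gives the SD over 3 arrays, and after a difference the standard error from limma. All 25 genes lay above the 0.95 quantile of 27 controls that have no target in plant RNA, on all 3 wild type arrays and all 6 double knockout arrays. In RNA of whole leaves, more RNA per cell and more cells of a type that holds the transcript cannot be told apart.

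Because the differences from wild type chose the genes, they are given as a description with no test. In nhx5-2/nhx6-2 the 25 genes had a median of 0.89 units (about 2.48-fold), where all probe sets had 0.0005. In nhx5-1/nhx6-1 their median was 0.78 (about 2.22-fold), where all probe sets had 0.0061. The single knockouts gave medians of 0.040 (nhx5-2) and 0.11 (nhx6-2). At least 0.5 units above wild type were reached by 1.67% of all probe sets in nhx5-2/nhx6-2, by 1.42% in nhx5-1/nhx6-1 and by 0.844% in both.

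**Figure D1:**
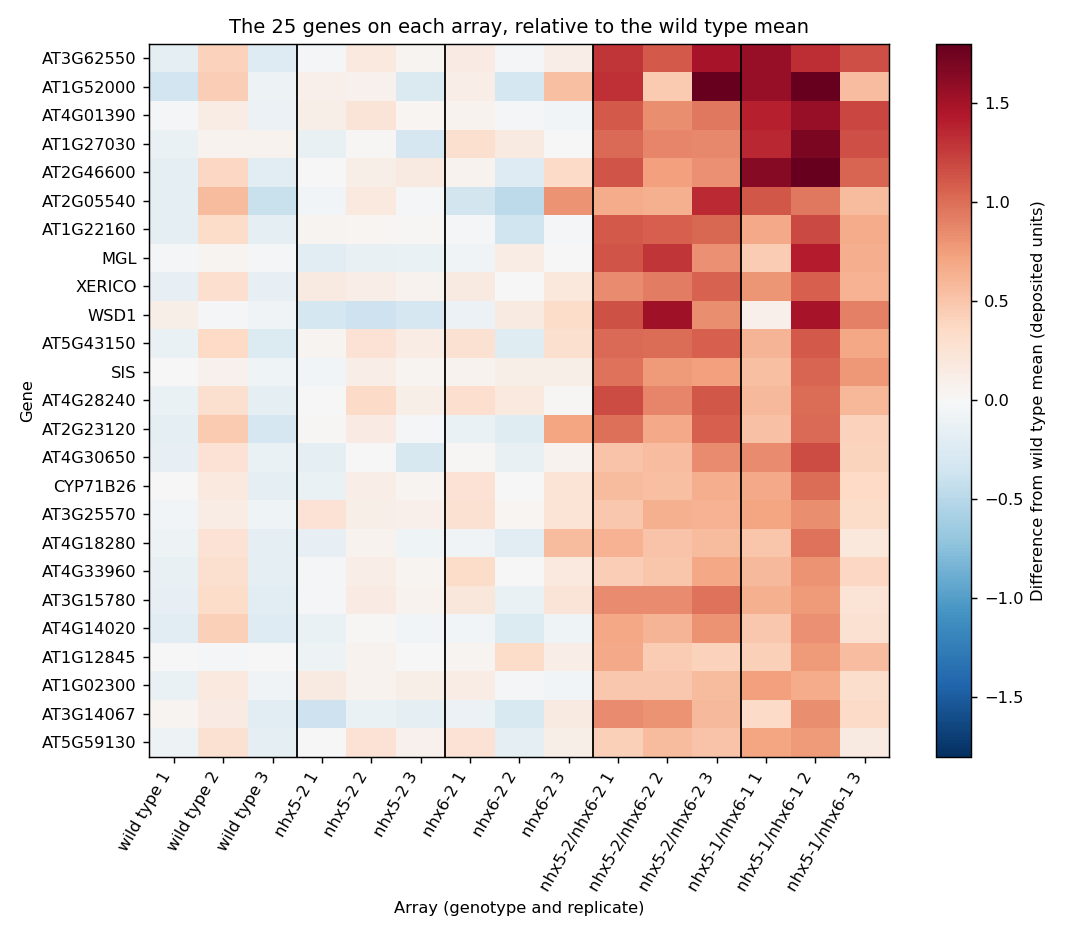
Each row is 1 of the 25 genes, ordered by the lower of its differences in the double knockouts, and each column is 1 of the 15 arrays. Colour gives the difference from the wild type mean in deposited units: the 6 double knockout columns are red but for WSD1 on nhx5-1/nhx6-1 replicate 1, which is near white, and wild type replicate 2 is redder than wild type replicates 1 and 3 for most genes.

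Several of the genes are named for stress. AT3G62550, of the universal stress protein family, gave 0.046, 0.64 and −0.013 on wild type replicates 1 to 3. It gave 0.21, 0.40 and 0.27 in nhx5-2, and 0.37, 0.20 and 0.34 in nhx6-2. In the double knockouts it gave 1.51, 1.33 and 1.72 (nhx5-2/nhx6-2) and 1.79, 1.55 and 1.38 (nhx5-1/nhx6-1). Every double knockout array lay above every other array, and the lower of its differences, 1.29 ± 0.15 units in nhx5-2/nhx6-2 (about 3.73-fold), was the highest of the 25.

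XERICO codes for a RING-H2 ubiquitin ligase that raises abscisic acid levels when overproduced. Its wild type values were 0.26, 0.71 and 0.27. It stood at 0.57, 0.54 and 0.47 in nhx5-2, at 0.58, 0.40 and 0.60 in nhx6-2, at 1.27, 1.34 and 1.47 in nhx5-2/nhx6-2 and at 1.201, 1.49 and 1.03 in nhx5-1/nhx6-1. The double knockout arrays all lay higher than the others, with a gap of 0.33 units between the nearest arrays. The differences from the wild type mean were 0.95 and 0.83 ± 0.12 units in nhx5-2/nhx6-2 and nhx5-1/nhx6-1. All 6 single knockout arrays lay above wild type replicates 1 and 3 and below wild type replicate 2.

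SIS, named in the reference table as salt induced and serine rich, was close to the same in wild type (−0.27, −0.19 and −0.35) and in both single knockouts (−0.32 to −0.16). In nhx5-2/nhx6-2 it gave 0.71, 0.49 and 0.47, and in nhx5-1/nhx6-1 0.27, 0.77 and 0.50. Its nearest double knockout and other arrays were 0.42 units apart. AT4G28240, of the wound-responsive family, gave 1.00, 1.41 and 0.97 in wild type, 1.11 to 1.47 in the single knockouts, 2.29, 2.00 and 2.25 in nhx5-2/nhx6-2 and 1.71, 2.13 and 1.72 in nhx5-1/nhx6-1, again with no overlap.

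AT2G23120 codes for a late embryogenesis abundant protein, a class of hydrophilic proteins made in drying tissue. It overlapped between genotypes: wild type replicate 2 stood at 2.67 and nhx6-2 replicate 3 at 2.91, against 2.63 on nhx5-1/nhx6-1 replicate 3. On the other wild type and single knockout arrays it lay between 1.91 and 2.35, and on the other double knockout arrays between 2.73 and 3.28. AT4G30650 belongs to the small membrane proteins of the RCI2 family, which are induced by cold and salt. It gave 0.070, 0.48 and 0.10 in wild type, −0.071 to 0.28 in the single knockouts, 0.72, 0.77 and 1.07 in nhx5-2/nhx6-2 and 1.07, 1.39 and 0.62 in nhx5-1/nhx6-1, without overlap.

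Among genes of signalling families, AT2G46600, an EF-hand calcium-binding protein gene, gave 0.96, 1.501 and 0.92 in wild type and 0.89 to 1.47 in the single knockouts. It reached 2.26, 1.86 and 1.95 in nhx5-2/nhx6-2 and 2.76, 2.92 and 2.18 in nhx5-1/nhx6-1. AT4G01390, of the TRAF-like family, lay between −0.54 and −0.21 on all 9 wild type and single knockout arrays. It stood at 0.66, 0.39 and 0.51 in nhx5-2/nhx6-2 and at 0.96, 1.13 and 0.76 in nhx5-1/nhx6-1, so that a gap of 0.61 units parted the 6 arrays from the 9. AT1G22160, a gene of the FLZ zinc finger family, gave 0.33, 0.82 and 0.33 in wild type, 0.54, 0.52 and 0.51 in nhx5-2 and 0.48, 0.13 and 0.47 in nhx6-2. Its nhx5-2/nhx6-2 values of 1.60, 1.56 and 1.53 were nearly the same, while nhx5-1/nhx6-1 gave 1.18, 1.68 and 1.17.

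4 of the genes code for enzymes of metabolism. MGL, methionine gamma-lyase, splits methionine into methanethiol, ammonia and a keto acid that can feed isoleucine synthesis. It stood at −0.18, −0.10 and −0.17 in wild type, −0.35, −0.28 and −0.27 in nhx5-2 and −0.21, −0.014 and −0.16 in nhx6-2. Its values of 0.98, 1.13 and 0.68 in nhx5-2/nhx6-2 and 0.30, 1.26 and 0.50 in nhx5-1/nhx6-1 all lay above those, with nhx5-1/nhx6-1 replicate 2 far above its fellows.

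WSD1, a wax ester synthase that also has diacylglycerol acyltransferase activity, gave 0.16, 0.031 and −0.0045 in wild type. All nhx5-2 arrays lay below that range (−0.26, −0.32 and −0.24), and nhx6-2 gave −0.041, 0.22 and 0.40. In nhx5-2/nhx6-2 it gave 1.21, 1.58 and 0.89, and in nhx5-1/nhx6-1 0.15, 1.54 and 0.97. The lowest of these, on nhx5-1/nhx6-1 replicate 1, fell inside the wild type range, so the mean difference of 0.83 ± 0.26 units there rested on replicates 2 and 3.

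AT3G25570 codes for an S-adenosylmethionine decarboxylase, which supplies aminopropyl groups for the polyamines spermidine and spermine. It gave 0.039, 0.22 and 0.0029 in wild type, 0.34, 0.19 and 0.18 in nhx5-2, 0.37, 0.11 and 0.34 in nhx6-2, 0.57, 0.73 and 0.71 in nhx5-2/nhx6-2 and 0.80, 0.92 and 0.41 in nhx5-1/nhx6-1. The 6 double knockout values were the highest, yet by only 0.045 units over the nearest single knockout array. CYP71B26, a cytochrome P450 gene, lay between 1.42 and 1.85 on the 9 other arrays and between 1.95 and 2.60 in the double knockouts.

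**Figure D2:**
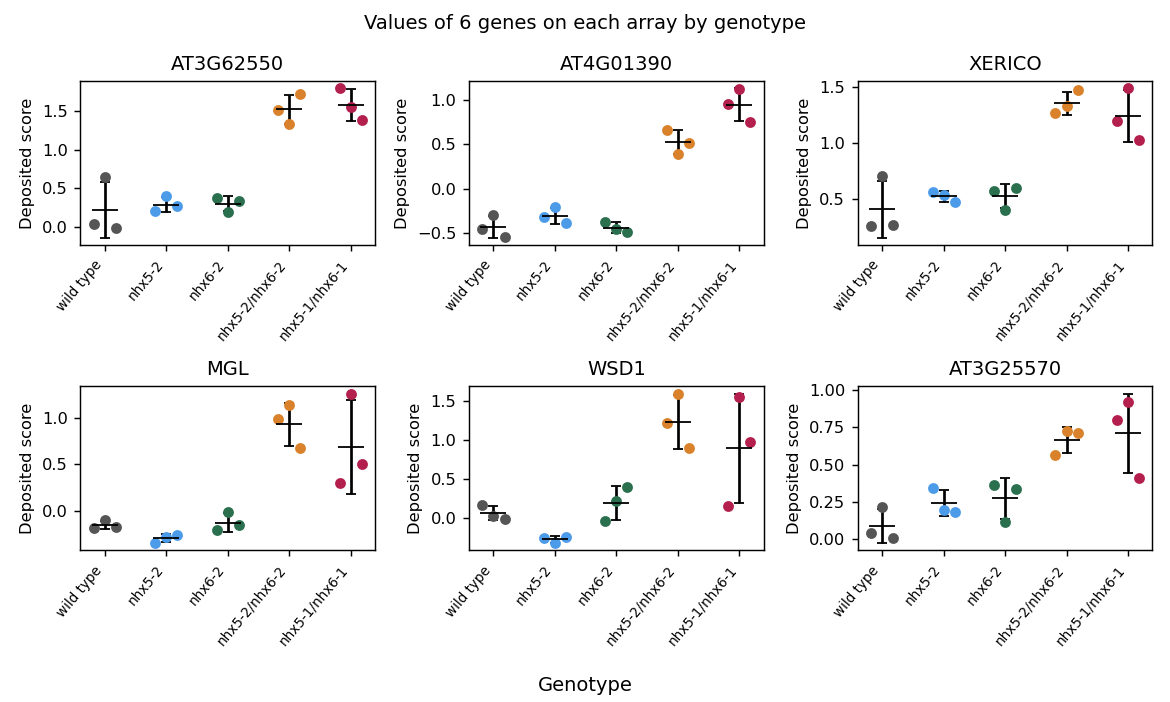
Points are the deposited scores of 6 genes on each array, horizontal bars are genotype means and error bars are SDs (n = 3 arrays). AT4G01390 and MGL show no overlap between the double knockouts and the other genotypes, while 1 nhx5-1/nhx6-1 array of WSD1, at 0.15, lies with wild type.

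3 genes code for proteases. AT1G02300, of the cathepsin B-like cysteine proteases that act in lytic compartments, lay between −0.25 and 0.050 on the 9 other arrays, at 0.36, 0.36 and 0.44 in nhx5-2/nhx6-2 and at 0.60, 0.54 and 0.19 in nhx5-1/nhx6-1. The subtilisin-like serine protease gene AT3G14067 gave 1.46, 1.56 and 1.19 in wild type, 1.03 to 1.57 in the single knockouts and 1.74 to 2.25 in the double knockouts. For AT5G59130, another subtilisin-like protease gene, nhx5-1/nhx6-1 replicate 3 (1.03) lay below wild type replicate 2 (1.13), and the other 5 double knockout arrays lay between 1.29 and 1.62.

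The remaining genes code for a lectin, glycine-rich proteins and proteins for which no role is given here. AT1G52000, of the jacalin lectin family, had the widest spread of the 25. Its double knockout values ran from 0.47 to 1.81 in nhx5-2/nhx6-2 and from 0.55 to 2.05 in nhx5-1/nhx6-1. Wild type ran from −0.35 to 0.43 and nhx6-2 from −0.32 to 0.54. AT2G05540, a glycine-rich protein gene, ranged from 0.73 to 2.01 in nhx6-2 alone, and its highest nhx6-2 value exceeded 3 of the 6 double knockout values. AT4G18280, related to glycine-rich cell wall proteins, stood at 0.89 on nhx6-2 replicate 3, as high as the nhx5-2/nhx6-2 arrays (0.83 to 0.95).

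Of the 6 genes with no role given, AT1G27030 lay between 0.18 and 0.77 on the 9 other arrays, at 1.498, 1.36 and 1.35 in nhx5-2/nhx6-2 and at 1.84, 2.17 and 1.63 in nhx5-1/nhx6-1. AT5G43150 gave 1.81 to 2.42 on the other arrays and 2.67 to 3.15 in the double knockouts. AT1G12845 had close wild type values (−0.36, −0.39 and −0.36) and gave 0.043 to 0.40 in the double knockouts. For AT4G33960 the nearest double and other arrays were 0.042 units apart. AT3G15780 and AT4G14020 overlapped, since wild type replicate 2 (0.65 and 0.41) lay above nhx5-1/nhx6-1 replicate 3 (0.56 and 0.25).

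In all, for 17 of the 25 genes every double knockout array lay above all 9 other arrays, as it did for 2.15% of all probe sets, and for 19 they lay above all 3 wild type arrays (6.81%). The nhx5-2/nhx6-2 arrays lay above wild type for 25 of the 25 (16.4% of all probe sets) and the nhx5-1/nhx6-1 arrays for 19 of 25 (11.1%). All 3 arrays of nhx5-2 lay above wild type for 0 of 25 (5.15% of all probe sets), and those of nhx6-2 for 1, AT1G12845 (5.90%). The choice of genes used these contrasts, so nothing is read from the shares.

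By the lower double knockout difference, AT5G59130 (0.504), AT3G14067 (0.510) and AT1G02300 (0.516) lay just inside the limit of 0.5, and AT1G73390 (0.495), CP5 (0.493) and AT4G13800 (0.493) just outside. By the higher single knockout difference, just under the limit of 0.2 lay AT3G25570 (0.186), AT4G33960 (0.170) and AT1G12845 (0.169). Just over it came BCAT4 (0.2345), a methionine aminotransferase gene of glucosinolate synthesis, AT4G16000 (0.235) and AT1G33970 (0.241). Of 82 nuclear probe sets at or above 0.5 in both double knockouts, 51 reached 0.2 in a single knockout.

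How close the single knockouts lay to wild type depended on wild type replicate 2. On that array 23 of the 25 genes lay above their wild type mean, with a median deviation of 0.27 units, against 41.4% of all probe sets. Their highest wild type value was there for 22, against 56.2% of the 11068 probe sets that lay above the no-target controls on all arrays. Set against wild type replicates 1 and 3 alone, the median of the higher single knockout difference went from 0.11 to 0.24 units, and 15 of the 25 genes reached the limit of 0.2 in a single knockout. The other 10, AT4G01390, AT1G27030, AT1G22160, MGL, WSD1, SIS, AT4G30650, AT4G14020, AT1G12845 and AT3G14067, stayed under it. Median differences without that array were 0.19 in nhx5-2 and 0.24 in nhx6-2, against −0.0033 and −0.010 over all probe sets. For 7 genes wild type replicates 1 and 3 both lay below all 6 single knockout arrays, against 9.88% of the same 11068 probe sets.

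Without wild type replicate 2 the lower double knockout difference had a median of 0.82 units and was at least 0.51. No single knockout difference reached 0.5. Leaving out wild type replicate 1 or 3 instead took the lower double knockout difference under 0.5 for some genes. It was 0.43 and 0.40 for AT4G14020, 0.46 and 0.42 for AT5G59130 and 0.47 and 0.45 for AT3G15780. Of the 25 genes, 20 and 18 still met the limits in those settings, and 17 did without nhx5-1/nhx6-1 replicate 2. The distance between single and double knockouts, 0.35 to 1.22 units with a median of 0.65 for the lower double over the higher single mean, does not involve wild type, and the limits held it above 0.3 for every gene. Without wild type replicate 2, at least 1 single knockout mean thus lay 0.2 units or more above wild type for 15 genes, and below both double knockout means. AT3G62550, AT1G52000, AT2G46600, AT2G05540 and XERICO were among them. Wild type replicate 2 also had the highest 3′ minus 5′ control signal of the wild type arrays, 1.97 against 1.79 and 1.83. By genotype that signal averaged 1.51 in nhx5-2, 1.61 in nhx6-2, 1.86 in wild type, 1.98 in nhx5-2/nhx6-2 and 2.34 in nhx5-1/nhx6-1. All single knockout arrays (1.69 or less) lay below all wild type and double knockout arrays (1.75 or more). The signal thus ran with the contrast of single and double knockouts. The part of RNA quality in that contrast, and in the values of wild type replicate 2, was not tested.

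**Figure D3:**
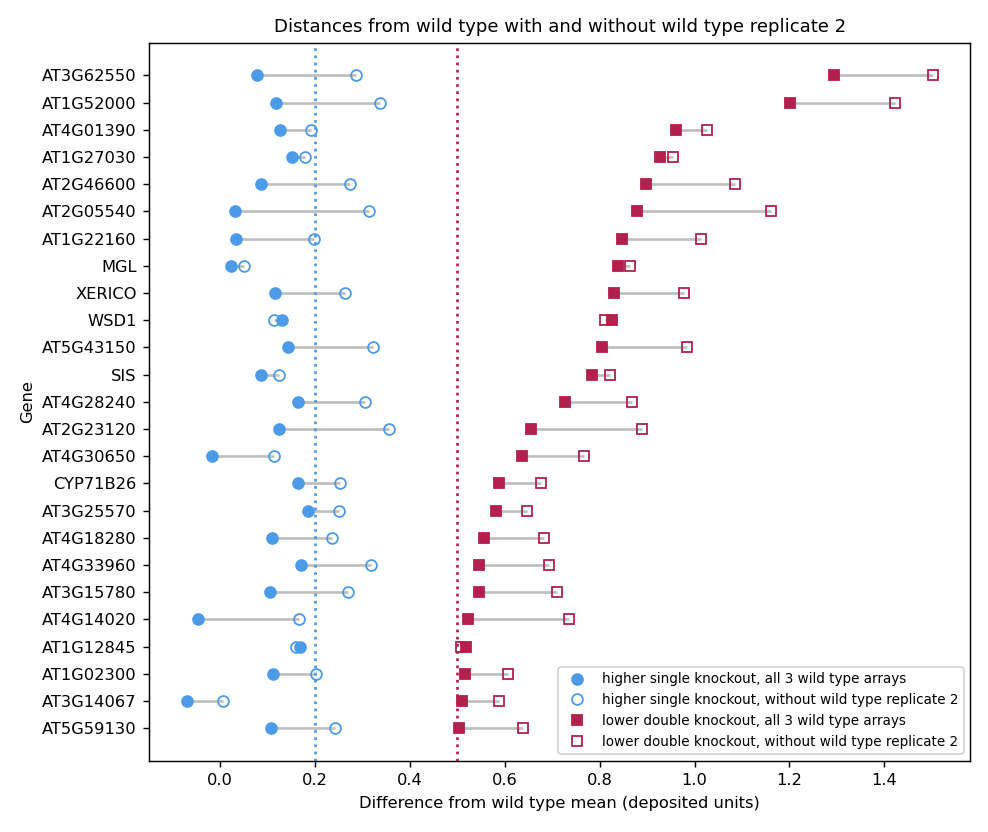
For each gene, circles give the higher of the single knockout differences from wild type and squares the lower of the double knockout differences, in deposited units, with all 3 wild type arrays (filled) and without wild type replicate 2 (open). Dotted lines mark the limits of 0.2 and 0.5: 15 open circles lie at or beyond 0.2, and every open square stays beyond 0.5.

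The genes also varied together between replicates of the same genotype. The group means behind the choice were made from these arrays, and a high wild type replicate 2 helped genes to stay under the limit of 0.2, so these deviations are not independent of the choice and are given as a description. On nhx5-1/nhx6-1 replicate 2, 24 of the 25 genes lay above their genotype mean (47.6% of all probe sets), by a median of 0.29 units. On its replicate 3, 1 of 25 did (48.6%), with a median of −0.235. On nhx5-2 replicate 2, 21 of 25 lay above (53.2%), by 0.098, and on nhx6-2 replicate 2, 6 of 25 (52.1%), with a median of −0.16. In nhx5-2/nhx6-2 the 3 medians stayed within −0.054 and 0.044. Over all probe sets the median deviation lay between −0.013 and 0.0044 on every array. These shares and medians include dim probe sets and were not computed for the 11068 brighter ones. They thus do not mark the deviations as particular to the 25 genes.

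Replicate 3 of nhx5-1/nhx6-1 also had the lowest SD over all probe sets, 0.762, against 0.876 and 0.888 on the others of its genotype. Of the 11068 brighter probe sets 67.6% were lowest there, against 18 of the 25 genes. Replicate 2 was highest for 52.0% of them, and for 22 of the 25 genes. With all arrays brought to the same distribution by quantile normalization, the median deviations were 0.21 on wild type replicate 2, 0.22 on nhx5-1/nhx6-1 replicate 2 and −0.077 on nhx5-1/nhx6-1 replicate 3.

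Over the 15 arrays the deviations of 2 of the genes correlated with a median r of 0.63 across 300 pairs, 93.7% of them above 0. These pairs share arrays and genes, so the value is a description. No such value was computed for other probe sets of like brightness, so the correlation cannot be called particular to the 25 genes. The median r was 0.53 without the nhx5-1/nhx6-1 arrays, 0.57 without the wild type arrays and 0.51 after quantile normalization. AT4G14020, CYP71B26, AT3G15780, XERICO and AT1G22160 followed the others most closely, with mean correlations of 0.68 to 0.70. AT1G12845 (0.14) and WSD1 (0.17) followed them least. The SD within genotypes had a median of 0.20 units over the 25 genes and of 0.10 over the brighter probe sets.

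**Figure D4:**
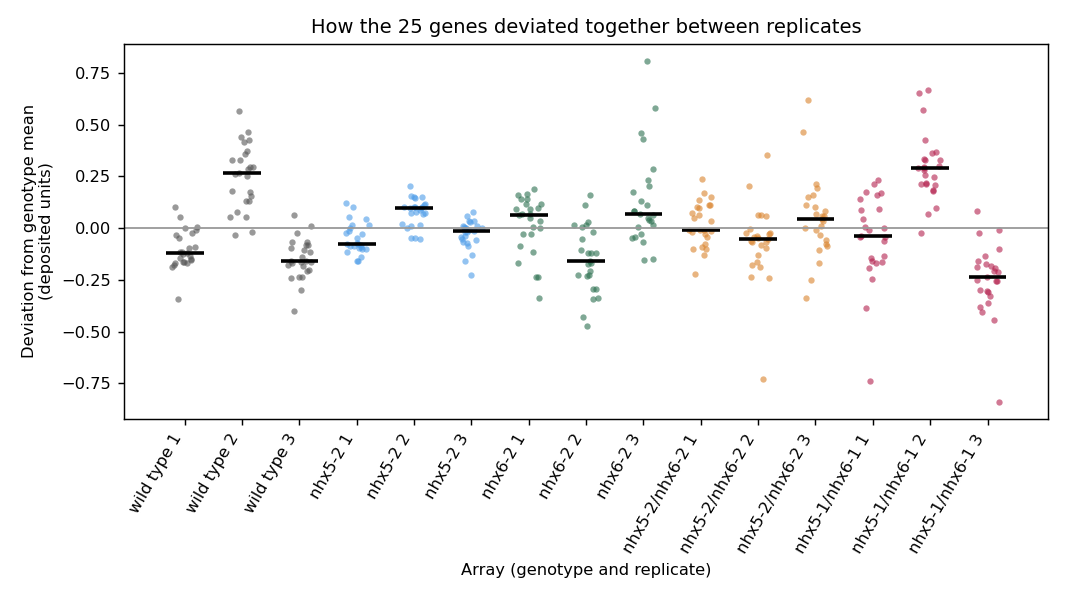
Points are the deviations of the 25 genes from their own genotype mean on each of the 15 arrays, in deposited units, and black bars are medians over the genes. The medians stand at 0.27 on wild type replicate 2, 0.29 on nhx5-1/nhx6-1 replicate 2 and −0.235 on nhx5-1/nhx6-1 replicate 3.

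The spread was widest for AT1G52000 (0.54 units, SD within genotypes), AT2G05540 (0.45), WSD1 (0.37), AT2G23120 (0.34), AT2G46600 (0.28) and AT4G18280 (0.28). In 2 of these the widest genotype was nhx6-2, where replicate 3 stood out: AT2G05540 gave 2.01 there against 0.86 and 0.73, and AT2G23120 2.91 against 2.09 and 1.99. AT4G18280 likewise gave 0.89 there against 0.26 and 0.13. WSD1 (0.031), AT1G12845 (−0.39) and AT1G27030 (0.53) were the 3 genes without their highest wild type value on replicate 2.

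The double knockout lines carry different insertions, and the choice set no direct limit on the difference between them. It did require at least 0.5 units in both, which left out genes raised in only 1 line. The choice thus favoured genes that were alike in the lines, and likeness is not read as a result. No gene of the 25 passed the test of that difference (limma, adjusted p threshold 0.05 over all probe sets), against 0.378% of all probe sets. At an unadjusted p under 0.05 there were 5 of 25, against 12.5% of all. For 12 genes nhx5-1/nhx6-1 was higher and for 13 it was lower, with a median difference of −0.0090 units.

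3 genes lay furthest above the line of equal differences. nhx5-1/nhx6-1 exceeded nhx5-2/nhx6-2 by 0.60 ± 0.20 units for AT2G46600 (limma adjusted p 0.220), by 0.48 ± 0.12 for AT1G27030 (0.108) and by 0.42 ± 0.094 for AT4G01390 (0.0718). The next gene, AT1G52000, differed by 0.19 ± 0.38. For AT4G01390 and AT1G27030 the 3 arrays of one line lay above all 3 of the other. Without nhx5-1/nhx6-1 replicate 3, the array of low SD, AT4G01390 (0.52 units, limma adjusted p 0.0279) and AT1G27030 (0.60, 0.0443) passed, and after quantile normalization all 3 did, with AT2G46600 at 0.77 (0.0390). With the 3′ minus 5′ control signal as a covariate none passed, at 0.32 units for AT2G46600 (limma adjusted p 1.0), 0.50 for AT1G27030 (0.671) and 0.30 for AT4G01390 (0.798). That signal averaged 2.34 ± 0.065 units on the nhx5-1/nhx6-1 arrays against 1.98 ± 0.20 on those of nhx5-2/nhx6-2 (SD, n = 3), and its part in these differences was not tested beyond that fit.

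On the other side, AT3G15780 was lower in nhx5-1/nhx6-1 by −0.35 ± 0.15 units, WSD1 by −0.34 ± 0.26, AT4G28240 by −0.33 ± 0.14 and MGL by −0.24 ± 0.18, none past the threshold (limma adjusted p 0.344, 0.656, 0.365 and 0.650). Without nhx5-1/nhx6-1 replicate 2 the difference of MGL was −0.53 with a limma adjusted p of 0.038, and with the 3′ minus 5′ covariate it was 0.17. Without that array 1.52% of all probe sets passed. For 10 genes the lines differed by less than 0.1 units, XERICO not among them (−0.12 ± 0.12) and SIS, AT3G62550 and AT3G25570 among them.

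**Figure D5:**
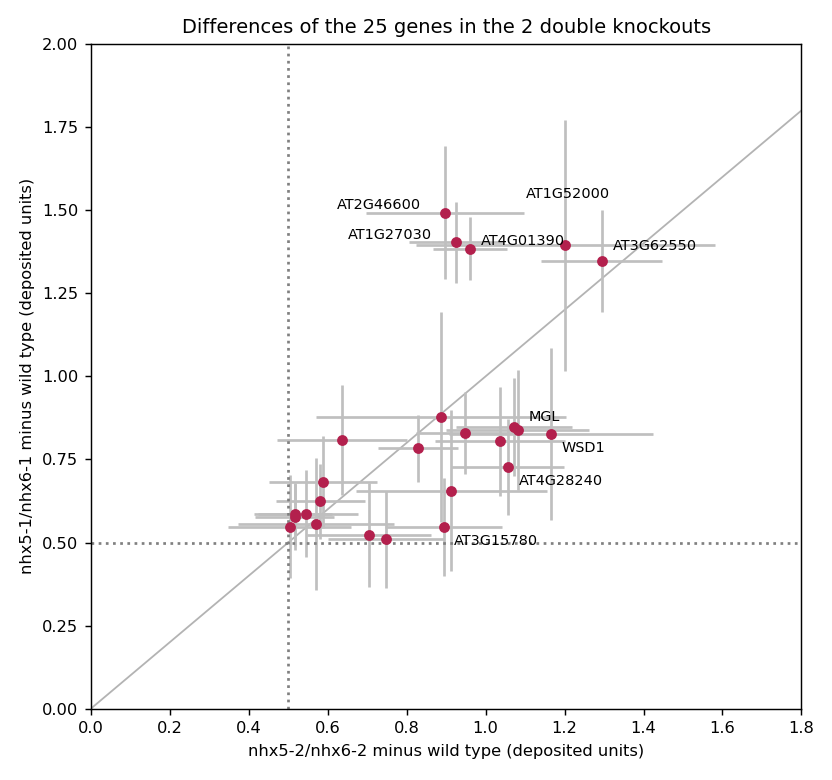
Each point is 1 of the 25 genes, with its difference from wild type in nhx5-2/nhx6-2 (horizontal) and in nhx5-1/nhx6-1 (vertical) in deposited units. Bars are limma standard errors, dotted lines the limit of 0.5 and the grey line equal differences: AT2G46600, AT1G27030 and AT4G01390 lie together above it.

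The single knockouts were compared in the same way. The choice limited how far each could lie above wild type, which left out genes raised past that limit in only 1 of them. Likeness of the single knockouts is thus not read as a result either. None of the 25 genes passed between nhx6-2 and nhx5-2 (limma), against 0.0132% of all probe sets, and 1 did at an unadjusted p under 0.05 (2.915% of all). That gene, AT1G27030, was higher in nhx6-2 by 0.29 ± 0.12 units. WSD1 showed the widest difference, 0.46 ± 0.26, with all 3 nhx6-2 arrays above all 3 nhx5-2 arrays.

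Relatives of the genes, picked by family after the genes were known and so given without a test, did not all share their pattern. Of 27 looked up, 12 had a probe set. AT4G30660, the RCI2 family gene next to AT4G30650, stood higher by 0.62 and 0.82 ± 0.15 units in nhx5-2/nhx6-2 and nhx5-1/nhx6-1, but also by 0.34 in nhx6-2. The other S-adenosylmethionine decarboxylase genes lay the opposite way from AT3G25570: SAMDC1 by −0.46 and −0.50 ± 0.13 units, and SAMDC2 by −0.26 and −0.43 ± 0.13. In nhx5-2 and nhx6-2 they also lay below wild type, SAMDC1 by −0.30 and −0.19 and SAMDC2 by −0.15 and −0.28. Cathepsin B-like AT4G01610 stood higher by 0.87 ± 0.11 in nhx5-2/nhx6-2 but by 0.26 in nhx5-1/nhx6-1, and AT1G02305, next to AT1G02300, by 0.36 and 0.21 ± 0.096.

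Among further relatives, AT1G78020, another FLZ gene, lay at −0.27 and −0.49 ± 0.13 units. The calcium-binding protein gene KRP1 lay at −0.19 in both lines. In nhx5-2 and nhx6-2, AT1G78020 also lay lower, at −0.30 and −0.45, and so did KRP1, at −0.15 and −0.27. Of lectins near AT1G52000, JAL5 and JAL6 differed by −0.015 to 0.071 units, and AT2G23110, the neighbour of AT2G23120, by 0.018 and 0.11.

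The genes were spread over the genome, with 6, 4, 5, 6 and 4 of them on chromosomes 1 to 5, and chromosome 4, with 6, held 14.7% of the measured nuclear probe sets. No 2 were neighbours. Of 50 adjacent protein-coding genes 26 had a probe set. In nhx5-2/nhx6-2, 4 rose and 1 fell (limma adjusted p under 0.05), where 4.27% and 5.54% of all probe sets did. In nhx5-1/nhx6-1, 1 rose and 1 fell, where 5.13% and 6.90% did. AT4G30660 was the 1 neighbour that rose in both, and AT5G43140, next to AT5G43150, fell in both (−0.27 and −0.26 units, limma adjusted p 0.0287 and 0.0320).

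None of the 25 genes stood on any of 13 function lists holding 238 genes. The choice left out COR, ATG8 and VPE genes by name, and the listed COR15A, COR15B and ATG8C had met its limits. Few listed genes had a probe set (47), so this absence is not read as a result. Of the 47 listed genes with a probe set, 13 rose in nhx5-2/nhx6-2 and 0 fell (limma adjusted p under 0.05), and 13 rose and 1 fell in nhx5-1/nhx6-1, against 4.27% and 5.13% of all probe sets that rose, and 9.81% and 12.0% that passed in either direction. Their median differences were 0.15 and 0.14 units. The calls of COR15A, COR15B and ATG8C are in these counts, although their values met the limits of the choice. The lists were also chosen with earlier results of these data known, so nothing is read from the excess over those shares. With the 3′ minus 5′ control signal as a covariate the counts were 12 and 0, and in nhx5-1/nhx6-1 the count was 6 without wild type replicate 1 or without wild type replicate 3, and 9 without nhx5-1/nhx6-1 replicate 2. The lists of abscisic acid signalling, salicylic acid and heat shock genes had no listed probe set.

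Autophagy, by which cell contents are carried to the vacuole for breakdown, gave most of these calls, with 7 of 14 genes higher in each line. ATG8G rose by 0.37 and 0.38 units (limma adjusted p 0.00081 and 0.000736), ATG8A by 0.56 and 0.40 (0.00102 and 0.00733) and ATG8C by 0.56 and 0.58 (0.00163 and 0.00122). They code for the ubiquitin-like proteins that coat autophagosome membranes. With the 3′ minus 5′ covariate the nhx5-1/nhx6-1 calls of ATG8G, ATG8A and ATG8C were lost (limma adjusted p 0.427, 0.915 and 0.459). Those in nhx5-2/nhx6-2 stayed (0.0038, 0.00425 and 0.00684).

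The list for breakdown of branched-chain amino acids and lysine had 8 measured genes. Of these MCCA, a subunit of methylcrotonyl-CoA carboxylase, rose in both lines (0.34 and 0.44 units, limma adjusted p 0.00052 and 7.3e-05), and IVD, isovaleryl-CoA dehydrogenase, rose by 0.33 and 0.25 (0.00758 and 0.0321). MCCB rose in nhx5-1/nhx6-1 by 0.23 (limma adjusted p 0.0244) and differed by 0.14 in nhx5-2/nhx6-2 (0.189). With the 3′ minus 5′ covariate the nhx5-1/nhx6-1 calls of MCCA, IVD and MCCB were lost. MCCA was then at 0.47 units there (limma adjusted p 0.0904). In nhx5-1/nhx6-1 the calls of IVD and MCCB were lost without wild type replicate 1 (0.129 and 0.0674), without wild type replicate 3 (0.153 and 0.0908), without nhx5-1/nhx6-1 replicate 1 (0.0941 and 0.0551) and without its replicate 2 (0.0778 and 0.0848), and that of MCCB also without wild type replicate 2 (0.0524). Of 5 drought and cold genes, COR15A rose in nhx5-2/nhx6-2 (1.42 units, limma adjusted p 0.0144), and COR47 (1.03, 0.0169) and COR15B (0.87, 0.0123) in nhx5-1/nhx6-1. Without wild type replicate 1 or replicate 3 none of these passed (COR15A 0.0575 and 0.0758, COR47 0.0634 and 0.0743, COR15B 0.065 and 0.0638), nor did COR15A without nhx5-2/nhx6-2 replicate 1 (0.0629) or COR47 without nhx5-1/nhx6-1 replicate 2 (0.0613; all limma adjusted p). With the 3′ minus 5′ covariate COR47 was at 0.57 units (0.951) and COR15B at 0.46 (0.948), while COR15A was at 1.26 (0.0477). COR15A, COR15B and ATG8C met the limits on values themselves.

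1 of 4 senescence genes, SAG29, rose in nhx5-2/nhx6-2 (0.79 units) and none in nhx5-1/nhx6-1. Of 6 folding genes of the endoplasmic reticulum, 2 rose in nhx5-2/nhx6-2, CNX2 (0.42 units) and ERDJ3B (0.61), and 0 in nhx5-1/nhx6-1 (0.22 and 0.43). ERDJ3B did not pass without nhx5-2/nhx6-2 replicate 1 or 2 (limma adjusted p 0.0557 and 0.0544). Of 3 trafficking genes, 1, ECHIDNA, fell in nhx5-1/nhx6-1 (−0.25, limma adjusted p 0.0293). That call was lost without wild type replicate 1, 2 or 3 (0.0656, 0.0942 and 0.0748) and without nhx5-1/nhx6-1 replicate 3 (0.0835). The 1 clock gene measured, GI, rose in nhx5-1/nhx6-1 (0.33, limma adjusted p 0.00704). It did not pass with only the 2 groups compared (0.09) or with the 3′ minus 5′ covariate (0.664). None of 4 antiporter and pump genes, 1 starvation gene and 1 jasmonate gene passed in either line.

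Of the leaf markers, RCA, the Rubisco activase gene, read 4.96 to 5.71 on all arrays, and LHCB4.3 fell in both lines (−0.59 and −0.89 units, limma adjusted p 0.0123 and 0.000958). The flower and meristem marker CLV3 and the root marker EXPA7 read between −0.84 and −0.26. The root marker PYK10 rose in nhx5-1/nhx6-1 by 0.32 units (limma adjusted p 0.00724), from −0.77 to −0.67 in wild type to −0.45 to −0.32. The guard cell marker FAMA (−0.033 and −0.0014 units) and the vascular marker SWEET11 (−0.16 and −0.40) did not pass in either line. No trichome marker had a probe set, and the part of cell type proportions in the differences of the 25 genes was not tested.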

How the data were processed

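RNA of rosette leaves was measured on Affymetrix Arabidopsis genome arrays, with 15 arrays in 5 genotypes of 3; per the labels' protocols each took biotinylated RNA made from 6 µg of total RNA. The authors deposited 1 score per probe set and array, a log-like value. The sources used here do not give its log base, summarization or normalization, and it was tested as deposited in place of the log2 values the design had assumed. The number of arrays limits the precision. Genes were named through the array annotation and the TAIR10.1 gene table.

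The 25 genes and all lists were chosen with earlier results of these data known. One limma 3.58.1 model (R 4.3.3) with 5 genotype means was fitted to all 22746 probe sets, with Benjamini-Hochberg adjustment over all of them and a threshold of 0.05; it was tested on simulated data. Differences between the lines of one kind and listed genes outside the 25 were tested. Genes were named by the lower double knockout difference, nearness to the limits, calls, spread between replicates and, of listed genes, the smallest p. Deviations of same-numbered arrays correlated between −0.36 and 0.35, with 6 of 30 pairs over 0.1, so the numbers were not taken as pairs. Alternatives were other scalings, limits, covariates and arrays left out. Sequences were not used here.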

Additional observations from a re-analysis of the deposited data

Results flagged for a closer look

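AT1G22160, the FLZ family gene, lay on opposite sides of wild type in the single knockouts. All 3 nhx5-2 arrays (0.54, 0.52 and 0.51) stood above the wild type mean of 0.49 units, and all 3 nhx6-2 arrays (0.48, 0.13 and 0.47) below it. The difference of nhx6-2 from nhx5-2 was −0.1652 units and did not pass the test (limma adjusted p 0.9999). The opposite directions rest on wild type replicate 2, which read 0.82: without it both single knockouts lay above wild type, by 0.20 units in nhx5-2 and 0.032 in nhx6-2.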

How the results depend on the processing

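The number of genes found, 25, was 58 with a limit of 0.4 and 15 with 0.6 in the double knockouts, and 9 with a limit of 0.1 and 41 with 0.3 in the single knockouts. Leaving out 1 array gave 15 to 35 genes, the fewest without nhx6-2 replicate 2 and the most without nhx5-1/nhx6-1 replicate 3. Without wild type replicate 2 it gave 23, of which 10 were among the 25, and with group medians 27, of which 13 were. Between the double knockouts 0 genes passed in limma (5 at unadjusted p under 0.05), 3 after quantile normalization, 2 without the arrays of low SD, 0 to 2 with 1 array left out and 2 without wild type replicate 2 and nhx5-1/nhx6-1 replicate 3 together, a setting chosen after seeing the data. Of all probe sets 0.378% passed in that test with all arrays, 1.67% after quantile normalization and 1.72% without the arrays of low SD. Without the 2 arrays named last 0.633% did, so calls rose over all probe sets too. MGL turned to 0.166 with the 3′ minus 5′ covariate. Between the single knockouts 0 passed under every alternative run (limma, 1 at unadjusted p under 0.05 with all arrays). The limit on the single knockouts had left out genes raised past it in only 1 of them, so this is not read as a result. Listed genes past the threshold in nhx5-2/nhx6-2 numbered 13, and 21 with only the 2 groups compared, 20 without those 2 arrays and 9 to 17 with 1 array left out. In nhx5-1/nhx6-1 they numbered 14, and 0 with the 3′ minus 5′ covariate, 6 with only the 2 groups compared and 6 to 15 with 1 array left out. With a replicate block the counts were 0 and 0 for the 25 genes and 13 and 13 for the listed genes. The causes were not tested.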
